A study of Mus musculus with 24 samples.

Results

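Lipid droplets store triglyceride behind a protein coat, and the 10 genes described here encode the coat, the enzymes that take the stored fat apart and the enzymes that make it. They are the perilipins Plin2, Plin3, Plin4 and Plin5, the lipases Pnpla2 and Lipe, the lipase regulators Abhd5 and G0s2, and the acyltransferases Dgat1 and Dgat2. The genes were taken from the table by symbol. All 10 were in a deposited RNA-seq table of 41549 genes, and 9 of them (all but Plin5) had enough reads to enter the statistical test of 15916 genes.

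The 24 libraries were made from pancreatic islets of wild-type mice, dispersed into single cells. According to the methods the mice were male and female C57BL/6NRj, 12 to 14 weeks old. Every culture received 50 pmol of an antisense oligonucleotide (ASO) with locked nucleic acid bases by lipofection. It was either a control ASO (Ctr) or an ASO against the fragment cut from the 5′ end of the glutamate tRNA with anticodon CTC (αGlu). The cells were then kept with the saturated fatty acid palmitate at 0.5 mM (PA) or with 0.75% bovine serum albumin alone (BSA), for 48 h in the protocol the methods give. The 4 groups are named by ASO and medium (αGlu PA for cells with the αGlu ASO and palmitate, and so on), and every group held 6 libraries, 3 in batch 1 and 3 in batch 2. The study counts the 6 as independent experiments and states that, for each replicate of islet cells, the groups came from the same animal. The labels do not say which libraries of different groups share an animal or what a batch was, so the tests below treat the 6 libraries of a group as unpaired. Lipofection was common to all groups, and no untransfected culture is included.

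Palmitate that enters a β-cell can be oxidised or esterified, and triglyceride synthesis ends with DGAT1 or DGAT2, which add the last acyl chain to diacylglycerol. The finished triglyceride sits in droplets coated by perilipins. Perilipin 2 and perilipin 3 occur in most cells, whereas perilipin 4 and perilipin 5 are best known from fat and from oxidative tissue. Triglyceride is split by adipose triglyceride lipase (the product of Pnpla2), which is activated by the Abhd5 protein and blocked by the G0s2 protein, and hormone-sensitive lipase (Lipe) takes the resulting diacylglycerol further.

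The ASO that separates the groups is shown against its target because each αGlu comparison turns on this pairing. Both sequences run 5′ to 3′, and the capitals in the target are bases 2 to 21, which pair with the 20 bases of the ASO. The target line holds only the stretch listed as targeted by the ASO. The paper reports longer fragments in islet cells.
αGlu ASO: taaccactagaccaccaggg
target fragment: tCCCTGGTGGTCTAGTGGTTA

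Library totals ran from 18214719 to 35001979 gene counts, with group medians from 24717904.5 (Ctr BSA) to 27186183.5 (αGlu PA). The islet label was checked against marker genes fixed in a list. Summed β-cell markers reached 62832 to 123940 CPM (a gene's TMM-scaled counts relative to its library's total), α-cell markers 9572 to 25203, δ-cell markers 174 to 569 and the PP-cell marker Ppy 288 to 1227. With PA the median β-cell sum went from 108263 to 75430 CPM in Ctr cells and from 99422 to 84127 in αGlu cells, and the median δ-cell sum from 364 to 231 and from 379 to 262. The 7 fibroblast and stellate markers had a median of 186 CPM (range 67.2 to 416) in Ctr BSA but 23.2 (6.89 to 42.6) in Ctr PA, and 128 (39.5 to 931) in αGlu BSA but 13.3 (4.37 to 159) in αGlu PA, so they were lower with PA. The 8 macrophage markers summed to 77.0 to 358 CPM, the 6 endothelial markers to 10.4 to 50.2 and the 4 ductal markers to 197 to 525, each with overlapping ranges between groups. Schwann and glial markers summed to 4.86 to 49.6 CPM, and their ranges in αGlu PA (4.86 to 7.50) and Ctr PA (9.07 to 35.8) did not overlap. The 6 acinar markers separated the batches, at 2691 to 18135 CPM in batch 1 and 190 to 545 in batch 2, and so did Ppy, at 575 to 1227 and 288 to 571. The 8 adipocyte markers, which include Plin1 and Adipoq, summed to only 0.649 to 2.66 CPM, with Plin1 at 0 to 4 counts and Adipoq at 0 to 12 counts per library. In bulk RNA, fewer cells of a type and less RNA per cell cannot be told apart.

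On the TPM scale, which divides by transcript length and is the only one here that ranks genes against each other, 1 lipase transcript led. In Ctr BSA cells Pnpla2 had the highest level, 43.9 ± 8.22 TPM (mean ± SD, n = 6), and it lay above Abhd5 in 24 of 24 libraries. Abhd5 at 16.1 ± 3.65, Plin2 at 14.6 ± 3.70, Plin3 at 12.3 ± 8.43 and Dgat1 at 11.5 ± 1.26 TPM followed, and neighbours in that sequence overlapped in range. Dgat2 came next at 3.08 ± 0.443 TPM and was below Dgat1 in all 24 libraries. Lipe at 2.69 ± 0.381, G0s2 at 1.24 ± 1.31, Plin4 at 0.309 ± 0.293 and Plin5 at 0.165 ± 0.179 TPM closed the order, each overlapping with its neighbour. Under palmitate Plin2 rose in this order to 40.9 ± 11.3 TPM in Ctr cells, within the Pnpla2 range of 33.6 to 54.4 TPM in the same group.

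**Figure D1:**
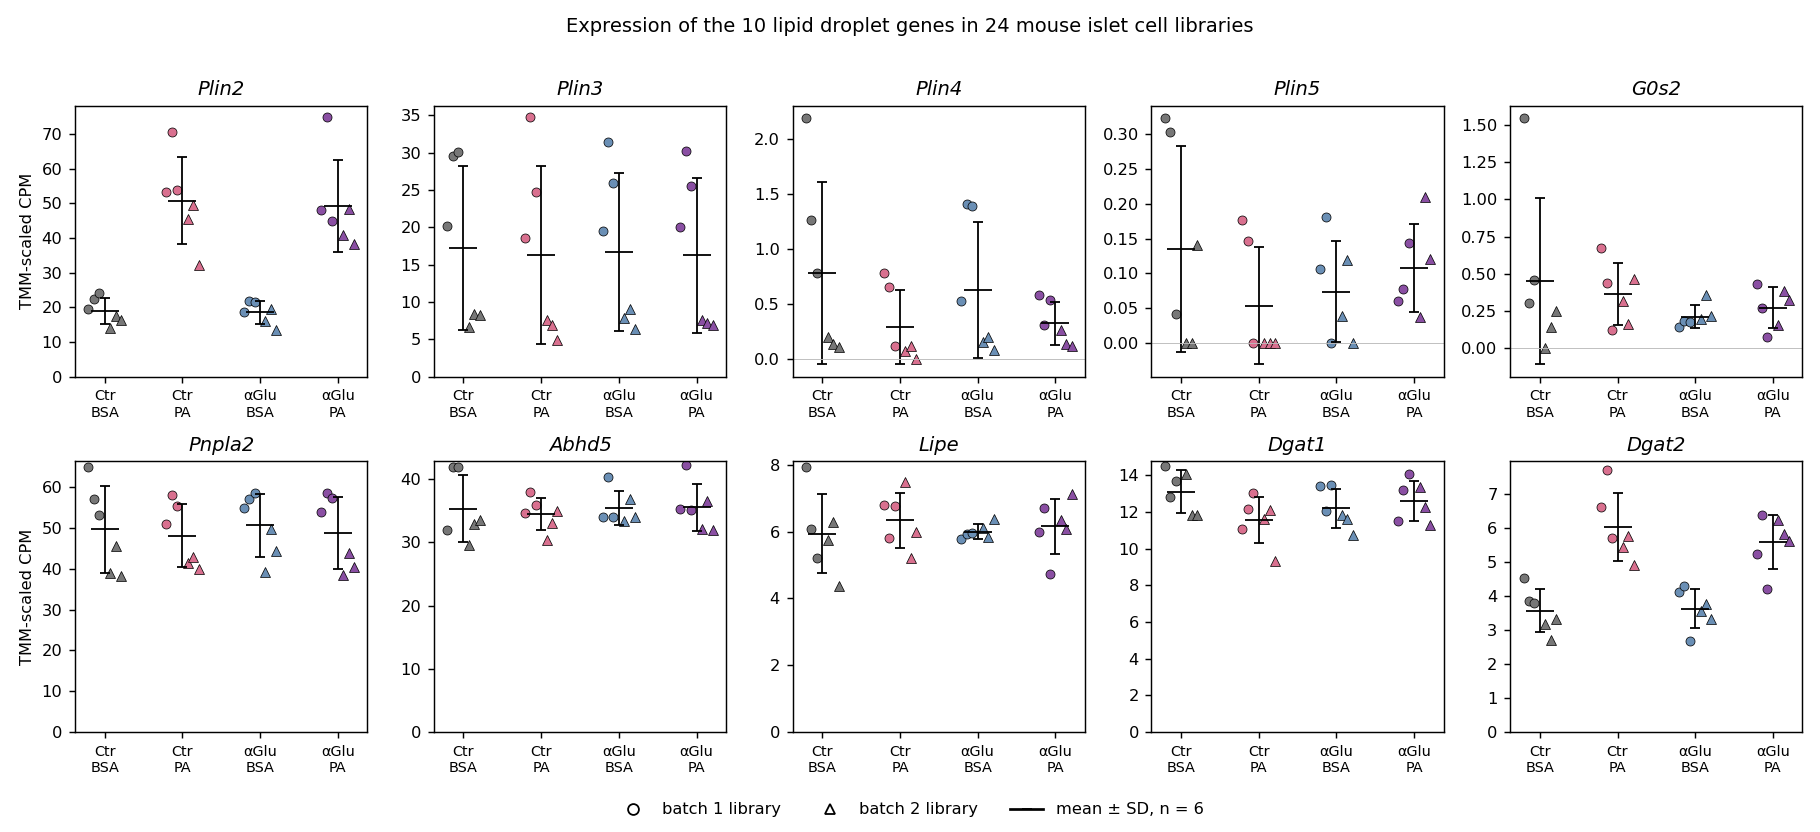
TMM-scaled CPM (vertical axis) of the 10 lipid droplet genes in each of 24 libraries, by group, with circles for batch 1, triangles for batch 2, and bars for the mean ± SD of 6 libraries. Plin2 and Dgat2 sat higher in the PA groups, and Plin3, Plin4 and Pnpla2 sat lower in batch 2 within every group.

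The first comparison asked which of these genes moved with palmitate. Of the 9 genes tested, Plin2 and Dgat2 rose in both Ctr and αGlu cells, Plin4 fell in Ctr cells and the other 6 did not pass the test in either. Testing used edgeR's quasi-likelihood test with batch as a term and Benjamini-Hochberg adjustment over all 15916 genes, with an adjusted p of 0.05 as the threshold. Among all genes tested, 15.5% rose and 14.5% fell with PA in Ctr cells, and 14.4% rose and 14.2% fell in αGlu cells. Read against those shares, the 2 raised and 1 lowered of 9 in Ctr cells, and the 2 raised and 0 lowered of 9 in αGlu cells, are no result about the list as a whole. Their median log2 fold change was -0.037 in Ctr cells and 0.039 in αGlu cells, beside 0.0074 and 0.0055 over all genes. With a fold above 2 and an unadjusted p below 0.05, 0.854% of all genes rose and 5.06% fell in Ctr cells, where Plin2 and Plin4 passed, and 0.823% rose and 4.74% fell in αGlu cells, where only Plin2 of the 9 did. The fibroblast and stellate, β-cell and δ-cell marker sums, with lower medians under PA as given above, moved with the same contrast, and their part in these results was not tested.

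**Figure D2:**
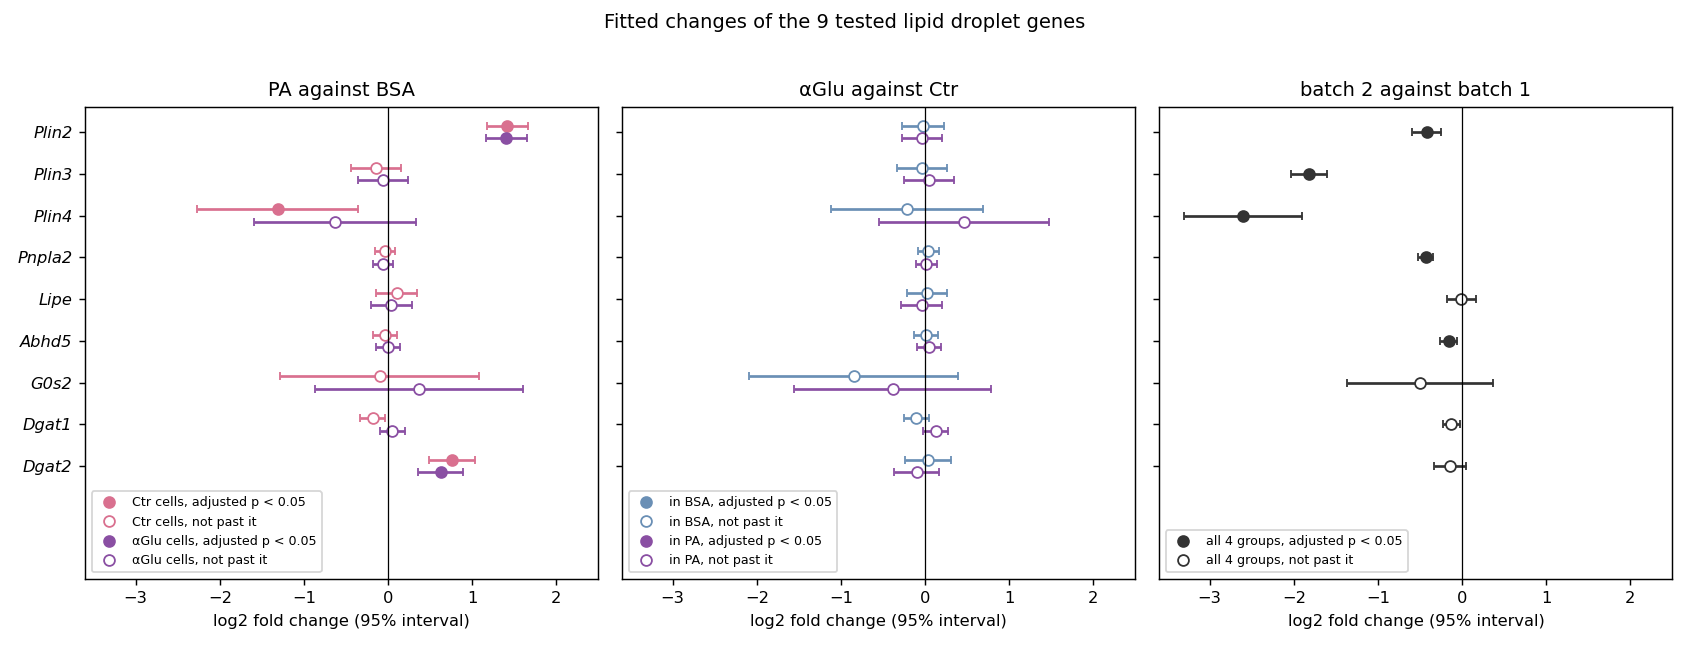
Fitted log2 fold changes (horizontal axis) with 95% intervals for the 9 tested genes, in panels for PA against BSA (Ctr and αGlu cells), αGlu against Ctr (BSA and PA) and batch 2 against batch 1, filled where the adjusted p was below 0.05. Plin2 and Dgat2 lay right of 0 in both palmitate comparisons, no gene was filled in the ASO comparisons, and all 9 lay left of 0 between batches.

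Plin2 encodes perilipin 2, the coat protein of droplets in most cells that are not adipocytes (ENSMUSG00000028494, chr4:86626910-86670217, minus strand, GRCm38). In Ctr BSA libraries its lowest, median and highest CPM were 13.98, 18.4 and 24.1, and in Ctr PA libraries 32.2, 51.3 and 70.7. In αGlu BSA libraries they were 13.5, 19.1 and 21.9, and in αGlu PA libraries 38.2, 46.6 and 75.0. Every PA library therefore stood above every BSA library with the same ASO. The log2 fold change was 1.42 ± 0.126 (SE) in Ctr cells (2.67-fold, adjusted p = 1.66e-08) and 1.41 ± 0.125 in αGlu cells (2.65-fold, adjusted p = 1.91e-08). Within batches it was 1.42 and 1.41 in Ctr cells and 1.43 and 1.37 in αGlu cells, so the rise was as large in either batch alone. Without the αGlu PA library S8, which held the highest value, the change in αGlu cells was 1.30 (adjusted p = 3.99e-08). The adipocyte marker sum had a median of 1.93 CPM without and 1.16 with PA in Ctr cells, and 1.73 and 0.921 in αGlu cells. The median macrophage sum was 141 in Ctr BSA and 91.9 in Ctr PA, and 121 and 119 in the αGlu groups. Fibroblast and stellate, β-cell, δ-cell, acinar, endothelial and ductal sums and Ppy also had lower medians with PA, as given above. The part of any of these cell types in the Plin2 values was not tested.

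Plin3 encodes perilipin 3, which moves onto young droplets from the cytosol (ENSMUSG00000024197, chr17:56278962-56290511, minus strand). Its CPM ranged from 6.67 to 30.1 in Ctr BSA (median 14.3) and from 4.94 to 34.7 in Ctr PA (median 13.1). The αGlu groups covered 6.34 to 31.4 (median 14.3) in BSA and 6.97 to 30.2 (median 13.8) in PA. These ranges overlapped almost completely, since each group held 3 high libraries from batch 1 and 3 low ones from batch 2. The log2 fold changes with PA were -0.14 in Ctr cells (adjusted p = 0.517) and -0.059 in αGlu cells, and neither passed.

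Plin4 encodes perilipin 4, a coat protein abundant in white fat (ENSMUSG00000002831, chr17:56100587-56109948, minus strand), and few reads covered it. Its CPM spanned 0.106 to 2.19 in Ctr BSA (median 0.491) and 0 to 0.780 in Ctr PA (median 0.119), so the groups overlapped. In αGlu cells it spanned 0.0851 to 1.41 in BSA (median 0.364) and 0.121 to 0.580 in PA (median 0.288). The fold change in Ctr cells was -1.31 ± 0.487 (SE, log2) with an adjusted p of 0.0439, and that in αGlu cells was -0.63 ± 0.493 with an adjusted p of 0.365. The difference between those fold changes was 0.68 ± 0.687 (95% interval -0.67 to 2.03) and did not pass.

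The Ctr call for Plin4 rested on single libraries. In read counts, the batch 1 Ctr BSA libraries held 34, 46 and 19 (S1, S5, S9) and the Ctr PA libraries 22, 18 and 3 (S3, S7, S11), while the batch 2 libraries held 5, 3 and 3 against 2, 3 and 0. A count of 0 in the PA library S23 still allows up to 3 counts, which is 0.107 CPM in that library. Leaving out Ctr BSA S1 brought the fold change to -0.99 (adjusted p = 0.142), leaving out Ctr PA S11 to -1.03 (adjusted p = 0.110), and leaving out Ctr PA S23 to -1.16 (adjusted p = 0.0644). Without Ctr BSA S5, Ctr BSA S13 or Ctr PA S15 it stayed at -1.29, -1.31 and -1.30, with adjusted p-values of 0.0719, 0.0624 and 0.0661. Batch 1 alone gave -1.42 with an adjusted p of 0.162. Exons of Plin4 overlap those of Hdgfl2 on the other strand, and whether strand was used in counting is not given in the sources used here.

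Plin5 encodes the perilipin that tethers droplets to mitochondria (ENSMUSG00000011305, chr17:56111597-56117606, minus strand). It had 60 counts in all 24 libraries together, 0 to 11 per library, and 0 counts in 8 libraries, including the 3 Ctr PA libraries of batch 2. It did not reach the count filter. Without any filter its change with PA in Ctr cells was -1.32 ± 0.981 (SE, log2) with an adjusted p of 0.406, so no change was detectable at this depth.

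Summed over the 4 perilipins, transcript abundance was 27.4 ± 12.1 TPM in Ctr BSA and 53.4 ± 20.04 in Ctr PA, and 28.3 ± 11.995 in αGlu BSA and 52.6 ± 19.6 in αGlu PA (SD, n = 6). Plin2 made up 46.1% ± 2.37 of that sum in batch 1 Ctr BSA libraries and 71.0% ± 3.30 in batch 1 Ctr PA libraries (SD, n = 3). In batch 2 the same shares were 68.3% ± 1.07 and 87.5% ± 0.864. Plin3 held most of the rest, with 51.3% in Ctr BSA and 28.4% in Ctr PA in batch 1, and 31.0% and 12.5% in batch 2. In αGlu cells the Plin2 share was 46.1% ± 3.99 and 69.8% ± 4.11 in batch 1, and 69.0% ± 0.428 and 85.7% ± 1.30 in batch 2. The shares follow from the levels above and were not tested separately.

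**Figure D3:**
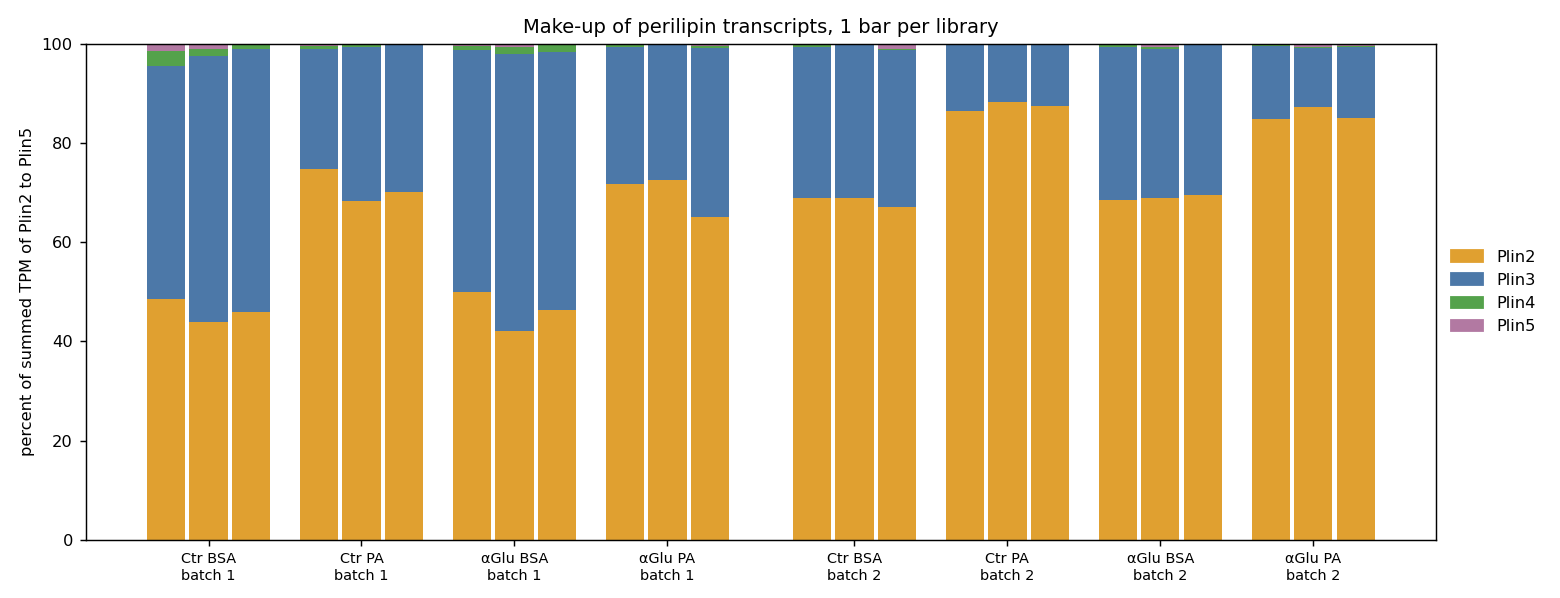
Percent of summed Plin2 to Plin5 TPM (vertical axis) held by each perilipin, 1 bar per library, by group and batch. Plin2 took 46.1% of the sum in batch 1 Ctr BSA and 87.5% in batch 2 Ctr PA, with Plin3 filling nearly all the remainder and Plin4 and Plin5 visible only as thin bands.

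The 250 bases upstream of the start sites of Plin2, which rose with PA, and of Plin3 and Plin4, which differed most between batches, are shown for comparison of the coat genes. They are the minus strand, 5′ to 3′, from RefSeq on GRCm38, ending at the base before the start site used for each window. For Plin2 and Plin4 that site lies inside the gene span given above. Part of their printed stretch therefore lies within that span. The windows are chr4:86670060-86670309 for Plin2, chr17:56290512-56290761 for Plin3 and chr17:56109783-56110032 for Plin4. Capitals mark the nuclear receptor hexamer AGGTCA read on either strand, which only the Plin2 sequence holds.
Plin2: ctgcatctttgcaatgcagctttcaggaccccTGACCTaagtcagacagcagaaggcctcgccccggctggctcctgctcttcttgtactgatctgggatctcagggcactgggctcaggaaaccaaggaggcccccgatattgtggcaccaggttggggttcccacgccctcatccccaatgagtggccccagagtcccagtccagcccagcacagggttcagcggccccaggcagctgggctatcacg
Plin3: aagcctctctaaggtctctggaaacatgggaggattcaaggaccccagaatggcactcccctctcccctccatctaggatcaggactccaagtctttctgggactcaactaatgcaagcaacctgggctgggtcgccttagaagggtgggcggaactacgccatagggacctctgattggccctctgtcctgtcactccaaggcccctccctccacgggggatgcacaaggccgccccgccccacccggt
Plin4: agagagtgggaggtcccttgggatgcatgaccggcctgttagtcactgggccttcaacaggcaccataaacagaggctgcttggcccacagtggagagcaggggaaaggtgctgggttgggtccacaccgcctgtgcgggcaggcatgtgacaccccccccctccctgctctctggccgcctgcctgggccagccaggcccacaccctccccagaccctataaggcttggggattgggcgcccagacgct

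Fatty-acid receptors of the PPAR family bind, with their partner RXR, a direct repeat of such hexamers, which is why these letters were looked up. RefSeq promoter windows of 300 bases were at hand for 8 of the 10 genes (not Dgat1 or Dgat2), 10 windows in all, out of 32851. The hexamer AGGTCA was found in windows of 3 genes, among them both Plin5 windows. Counted from the start site of each window, its first base lay at -218 for Plin2 and -69 for Abhd5 (both reverse strand). It lay at -170 and 13 in the Plin5 windows (forward strand). The hexamer occurs in 16.3% of all promoter windows of this length, which is a share of windows, whereas the 3 above counts genes. The direct repeat AGGNCA spaced by 1 base, which can hold the hexamer, was in none of the members' windows and in 0.381% of all windows. A match describes letters only, and no match says no more than that these letters were not in these windows.

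None of the 4 lipolysis genes passed the test with palmitate. Pnpla2, the lipase that makes the first cut in triglyceride (ENSMUSG00000025509, chr7:141455188-141460743, plus strand), spanned 38.2 to 64.9 CPM in Ctr BSA (median 49.3) and 40.0 to 58.1 in Ctr PA (median 46.9). In αGlu cells it spanned 39.1 to 58.6 in BSA (median 52.3) and 38.5 to 58.6 in PA (median 48.9). The groups overlapped fully. The log2 fold change was -0.037 in Ctr cells, with a 95% interval of -0.16 to 0.085, and -0.060 in αGlu cells.

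Abhd5, whose product activates that lipase (ENSMUSG00000032540, chr9:122351616-122381524, plus strand), spanned 29.6 to 42.1 CPM over all libraries with a median of 34.3. Its log2 fold change with PA was -0.033 in Ctr cells (95% interval -0.17 to 0.11) and 0.0026 in αGlu cells. Lipe, encoding hormone-sensitive lipase (ENSMUSG00000003123, chr7:25379527-25398486, minus strand), spanned 4.38 to 7.92 CPM with a median of 6.03. Its log2 fold change was 0.10 in Ctr cells (95% interval -0.14 to 0.34) and 0.039 in αGlu cells. Exons of both genes overlap those of genes on the other strand (A730085K08Rik and 4732471J01Rik).

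G0s2, which encodes the inhibitor of the same lipase (ENSMUSG00000009633, chr1:193272160-193273188, minus strand), was read too rarely for a firm statement. It had 0 to 24 counts per library. Its CPM spanned 0 to 1.55 in Ctr BSA (median 0.275) and 0.120 to 0.673 in Ctr PA (median 0.377). The αGlu cells spanned 0.141 to 0.357 with BSA (median 0.189) and 0.0717 to 0.427 with PA (median 0.296), and all groups overlapped. The log2 fold change was -0.10 in Ctr cells, with a 95% interval from -1.29 to 1.08, and 0.36 ± 0.631 (SE) in αGlu cells, so a change of 2-fold in either direction was within the interval in Ctr cells.

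Balances within the lipolysis genes were compared as log2 ratios of TPM with 0.1 added to each value, in 4 comparisons for each of 3 gene pairs and with p-values adjusted over those 12 exact permutation tests. The G0s2 to Pnpla2 ratio, inhibitor over lipase, differed by 0.38 between Ctr PA and Ctr BSA, but by -0.70 in batch 1 and 1.47 in batch 2. It differed by 0.27 between αGlu PA and αGlu BSA. The Lipe to Pnpla2 ratio differed by 0.13 and 0.087 in the same comparisons. Adjusted p-values of these 4 two-sided exact permutation tests were all 0.862.

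Triglyceride synthesis was where the remaining call lay, in Dgat2 and not in Dgat1, enzymes of one reaction but of unrelated protein families. Dgat2 (ENSMUSG00000030747, chr7:99153663-99182713, minus strand) had lowest, median and highest CPM of 2.71, 3.56 and 4.51 in Ctr BSA and of 4.90, 5.73 and 7.69 in Ctr PA, which did not overlap. It had 2.68, 3.66 and 4.29 in αGlu BSA and 4.20, 5.71 and 6.37 in αGlu PA, where the lowest PA library, S12, lay below the highest BSA library, S6. The log2 fold change was 0.76 ± 0.138 (SE) in Ctr cells (1.69-fold, adjusted p = 1.95e-04) and 0.62 ± 0.138 in αGlu cells (1.54-fold, adjusted p = 0.00136).

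Within batches the Dgat2 change in Ctr cells was 0.71 (adjusted p = 0.0514) in batch 1 and 0.80 (adjusted p = 0.00615) in batch 2. In αGlu cells it was 0.50 (adjusted p = 0.173) and 0.73 (adjusted p = 0.00873). All 4 values were positive, and those of batch 1 did not pass the test on their own.

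Dgat1 (ENSMUSG00000022555, chr15:76502012-76512021, minus strand) had lowest, median and highest CPM of 11.8, 13.3 and 14.5 in Ctr BSA and of 9.34, 11.9 and 13.03 in Ctr PA. In αGlu cells they were 10.8, 11.9 and 13.5 in BSA and 11.3, 12.7 and 14.1 in PA. Both pairs of groups overlapped. The log2 fold change was -0.18 ± 0.0766 (SE) in Ctr cells, with an adjusted p of 0.0766 (unadjusted 0.0262), and 0.050 in αGlu cells.

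The balance of Dgat2 to Dgat1, on the log2 TPM scale, had its lowest, median and highest values at -2.13, -1.82 and -1.67 in Ctr BSA and at -1.19, -0.999 and -0.67 in Ctr PA. These groups did not overlap, and their means differed by 0.92 (0.87 within batch 1, 0.98 within batch 2). The two-sided exact permutation test over 924 arrangements gave p = 0.0022, the smallest p that 6 against 6 libraries allow, or 0.0260 adjusted over the 12 ratio tests. Permuting only within batches gave an adjusted p of 0.06 for the same difference. In αGlu cells the ratio went from -2.29, -1.68 and -1.48 in BSA to -1.73, -1.09 and -1.01 in PA, and the groups overlapped through the lowest PA library, S12. The difference was 0.56 (adjusted p = 0.0779, exact permutation test), and 0.67 (adjusted p = 0.0130, exact permutation test) without S12. It was 0.45 (adjusted p = 0.104, exact permutation test) without the lowest BSA library, S10, and adjusted p-values ranged up to 0.143 when another library was left out.

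**Figure D4:**
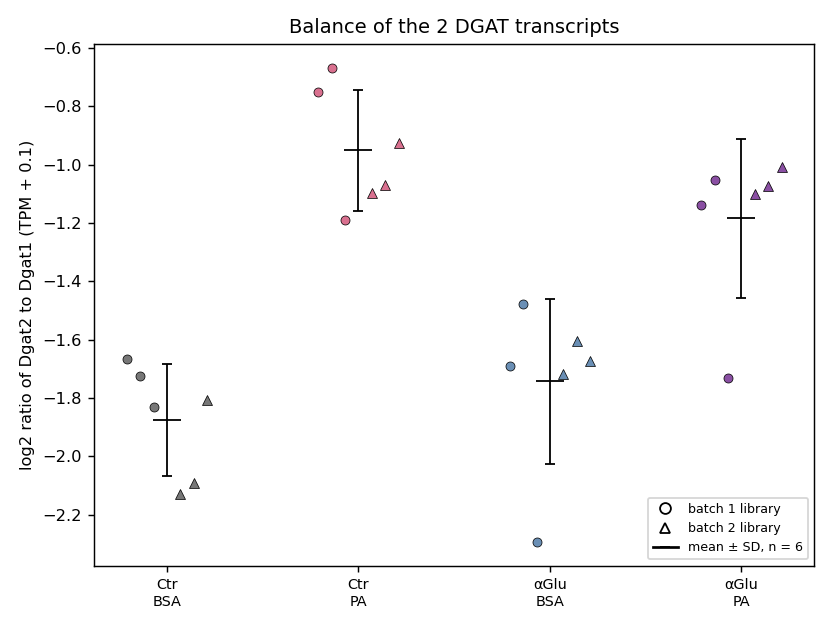
Log2 ratio of Dgat2 to Dgat1 TPM, with 0.1 added to each (vertical axis), in each library by group, with the mean ± SD of 6 libraries. Ctr PA libraries (-1.19 to -0.67) all lay above Ctr BSA libraries (-2.13 to -1.67), and αGlu PA library S12 (-1.73) lay inside the αGlu BSA range.

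Around these genes stands a wider list of 38 genes of droplet growth, phosphatidate and triglyceride synthesis, sterol esterification and lipid hydrolysis, of which 32 were tested. Plin1, Cideb, Fitm1, Mogat1, Mogat2 and Mettl7b were too low to test. In Ctr cells 9 of the 32 rose and 1 fell with PA (median log2 fold change 0.13), and in αGlu cells 9 rose and 1 fell (median 0.15), beside the shares of all genes called (15.5% up and 14.5% down in Ctr cells, 14.4% and 14.2% in αGlu cells) and the medians given above. The 6 genes that rose in both were Agpat3, Agpat4, Bscl2, Fitm2, Hsd17b11 and Lpin2. The 1 that fell in both was Gpam, the mitochondrial enzyme for the first acylation of glycerol-3-phosphate, by 0.23 in Ctr cells (adjusted p = 0.00852) and 0.22 in αGlu cells (adjusted p = 0.0121) on the log2 scale.

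Among those that rose, Agpat4, which adds the second acyl chain to lysophosphatidate, had the largest change in both. It went from 5.73 ± 0.865 to 8.53 ± 1.51 CPM (SD, n = 6) in Ctr cells and from 5.61 ± 0.529 to 9.92 ± 1.19 in αGlu cells. Its log2 fold changes were 0.58 (adjusted p = 7.63e-04) and 0.82 (adjusted p = 1.35e-05). Fitm2, needed for droplets to bud from the endoplasmic reticulum, went from 67.3 ± 10.1 to 87.9 ± 10.1 CPM in Ctr cells, a log2 fold change of 0.39 (adjusted p = 9.14e-06), and changed by 0.38 in αGlu cells (adjusted p = 1.09e-05). Hsd17b11, a droplet-bound dehydrogenase, changed by 0.35 (adjusted p = 7.77e-05) and 0.37 (adjusted p = 4.14e-05).

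Bscl2, which encodes seipin at the junction of droplet and endoplasmic reticulum, rose by 0.27 on the log2 scale in Ctr cells (adjusted p = 8.57e-04). Lpin2, a phosphatidate phosphatase that makes diacylglycerol, rose by 0.35 in Ctr cells (adjusted p = 7.94e-04), and its log2 fold change was 0.35 without the batch term (adjusted p = 0.400) and 0.33 in batch 1 alone (adjusted p = 0.110), of like size but not past the threshold. Hilpda, encoding another inhibitor of the Pnpla2 lipase, had a log2 fold change of 0.61 in αGlu cells (adjusted p = 0.00360), from 3.45 ± 0.435 to 5.32 ± 1.07 CPM. Agpat2, an enzyme of the same step as Agpat4, had one of 0.32 in αGlu cells (adjusted p = 0.0295). That call was lost without any 1 of the αGlu libraries S12, S14, S16, S18, S20 and S22, with adjusted p-values up to 0.0724, and without the batch term (adjusted p = 0.120), while the log2 fold change stayed at 0.29 to 0.32. In 1 batch alone, with 3 libraries a group, several of these also missed the threshold with the same sign. In batch 2 these were Agpat4 in Ctr cells (0.54, adjusted p = 0.0903), Hsd17b11 (0.26 in Ctr cells and 0.30 in αGlu cells, adjusted p = 0.0909 and 0.0572) and Hilpda in αGlu cells (0.45, adjusted p = 0.201), and in batch 1 Bscl2 in Ctr cells (0.25, adjusted p = 0.0845). Agpat2 missed it in either batch (0.25 and 0.39, adjusted p = 0.353 and 0.135). For Hilpda and Agpat2, the difference between the Ctr and αGlu responses did not pass the test.

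**Figure D5:**
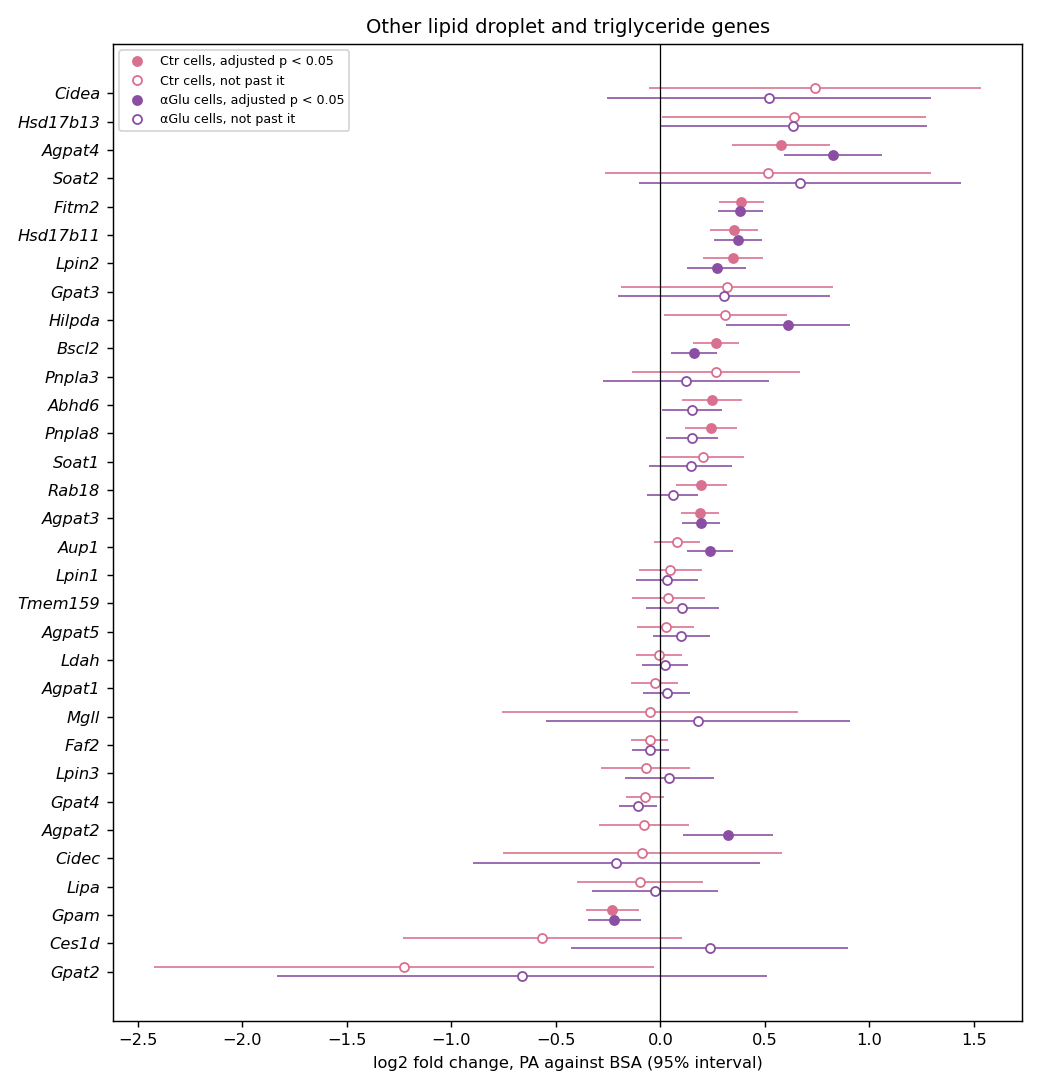
Log2 fold change with PA and 95% interval (horizontal axis) of the 32 tested genes of the wider list, in Ctr and αGlu cells, filled where the adjusted p was below 0.05. In each kind of cell 9 genes rose and 1, Gpam, fell, and no filled change reached 1 on the log2 scale.

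The second comparison asked whether blocking the tRNA fragment moved these genes, with or without palmitate. None of the 9 passed the test, and none had an unadjusted p below 0.05 in either medium. Over all genes edgeR called 0% with BSA and 0% with PA (461 and 538 genes had an unadjusted p below 0.05), while DESeq2 called 8 and 30 genes, none of them a member. For Plin2 the log2 difference of αGlu from Ctr was -0.026 in BSA (95% interval -0.27 to 0.22) and -0.038 in PA (-0.27 to 0.20). For Dgat2 it was 0.036 (-0.24 to 0.31) and -0.10 (-0.37 to 0.16). A larger value with a wide interval was that of G0s2 in BSA, -0.85 (-2.09 to 0.39), which was -2.12 in batch 1 alone (unadjusted p = 0.0244, adjusted p = 0.998), where the highest Ctr library, S1, held 1.55 CPM and the next 0.454. Leaving out S1 brought the value over both batches to -0.12, and leaving out Ctr BSA S13, which had 0 counts, to -1.16. The Schwann and glial marker sum was lower in αGlu PA than in Ctr PA, as given above, and its part in the PA values was not tested.

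Whether palmitate acted differently under the 2 ASOs was tested as the difference between the PA responses. The share of all genes called was 0% (332 at an unadjusted p below 0.05, and 0 called and 340 at that p with DESeq2). The Plin2 response differed by -0.013 on the log2 scale (95% interval -0.36 to 0.33) and the Dgat2 response by -0.14 (-0.52 to 0.24). Dgat1 had the only unadjusted p below 0.05 among the 9, at 0.0423, with a difference of 0.23 ± 0.108 (SE) and an adjusted p of 0.999. The Dgat1 values behind it were those given above, a log2 change of -0.18 in Ctr and 0.050 in αGlu cells.

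The third comparison was between batches, over all 4 groups. All 9 genes had lower fitted values in batch 2 and 5 of them fell past the threshold, with a median log2 difference of -0.42 beside 0.0039 over all genes. Lower fitted values in batch 2 were found in 7873 of all 15916 genes tested. Of all genes tested, 26.1% were higher and 25.4% lower in batch 2, and 5.32% were lower with a fold above 2 and an unadjusted p below 0.05, as Plin3 and Plin4 were. The acinar sum and Ppy were likewise lower in batch 2, as given above, and the median β-cell sum was higher (74474 CPM in batch 1, 107007 in batch 2). Median α-cell sums were 18106 CPM in batch 1 and 12805 in batch 2, ductal sums 442 and 333, and endothelial sums 37.3 and 25.0. Fibroblast and stellate medians were 62.3 and 39.1, and adipocyte medians 1.82 and 1.29. Macrophage (90.9 and 142) and Schwann and glial medians (8.07 and 12.7) were higher in batch 2, with δ-cell medians of 290 and 292. The part of these sums in the batch differences was not tested. The labels name the batches without saying how they differ, so handling, animals and sequencing cannot be told apart. By the study's statement, libraries of different groups can come from the same animal. The test between batches counted every library as separate, so its SEs and p-values may be too small. The shares of genes called between batches may then be too large.

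Plin3 ranged from 18.6 to 34.7 CPM in batch 1 (median 25.7) and from 4.94 to 9.13 in batch 2 (median 7.36). The batches did not overlap, and this held in each of the 4 groups. The log2 difference was -1.83 ± 0.109 (SE, adjusted p = 2.27e-12). Plin4, 169 kb away on the same chromosome, ranged from 0.120 to 2.19 CPM (median 0.718) and from 0 to 0.267 (median 0.129), which overlapped, with a log2 difference of -2.60 ± 0.357 (adjusted p = 1.34e-06).

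Pnpla2 ranged from 51.0 to 64.9 CPM in batch 1 and from 38.2 to 49.7 in batch 2 without overlap, a log2 difference of -0.43 ± 0.0439 (SE, adjusted p = 1.06e-08). Plin2 differed by -0.42 (adjusted p = 2.59e-04) and Abhd5 by -0.16 (adjusted p = 0.0121). Dgat1 at -0.13 (adjusted p = 0.0527), Dgat2 at -0.15, Lipe at -0.012 and G0s2 at -0.50 did not pass. Of the 32 genes of the wider list, 9 were higher and 10 lower in batch 2.

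The palmitate responses of the 9 genes were not called different between batches, where 0.0565% of all genes were. The difference of the response, batch 2 against batch 1 on the log2 scale, was -0.043 for Plin2 (95% interval -0.41 to 0.32), 0.15 for Dgat2 (-0.21 to 0.51) and 0.84 for Plin4 (-0.66 to 2.34).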

How the data were processed

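RNA from 24 cultures of mouse islet cells was made into stranded mRNA libraries. Read annotation and normalisation were the authors' (QIAGEN RNA-seq Analysis Portal 5.1, GRCm38). The deposited table gives raw counts per gene, which were used for testing, and the authors' TPM values, which were used to rank genes and for ratios. Another 48 per-library columns (RPKM and CPM) and the authors' own comparisons (fold changes and p-values) were not used. Neither the aligner nor the use of strand in counting is given in the sources used here. An empty cell was read as 0, and 1 line without a gene held 0 counts.

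Samples were grouped by their labels. Genes passing filterByExpr (15916, holding 99.95% of counts) were fitted with edgeR 4.0.16 under R 4.3.3 (limma 3.58.1 installed), TMM scaling and quasi-likelihood tests, with group and batch as terms and Benjamini-Hochberg adjustment. CPM values are TMM-scaled. Intervals are ± 1.96 SE. The biological coefficient of variation was 15.4%. Ratios used log2(TPM + 0.1) and two-sided exact permutation tests. DESeq2 1.42.0, upper-quartile scaling, other filters, no batch term, the compared groups alone, each batch alone and each library left out were alternatives, and a pseudocount of 0.5 was one chosen after seeing the data. The scripts were tested on simulated data. If the samples did not come from separate cultures, p-values measure only technical spread. All 10 members are reported, and of the wider list the called genes with the 5 largest changes per PA comparison, plus Gpam, added after its values were seen. Members and lists were chosen with earlier results of these data known.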

Additional observations from a re-analysis of the deposited data

Results flagged for a closer look

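Of 52 groups of 6 values screened, 5 had a library standing apart by Dixon's test, which chance alone gives in about 1 of 20 groups, and many of the groups share libraries. The αGlu PA library S8 had Plin2 at 75.0 CPM, the next at 48.4. The Ctr BSA library S1 had G0s2 at 1.55 CPM, the next at 0.454, and the αGlu BSA library S18 had G0s2 at 0.357 CPM, the next at 0.213, both from few counts. The log2 ratio of Dgat2 to Dgat1 was low in the αGlu BSA library S10, at -2.29 with the next at -1.72, and in the αGlu PA library S12, at -1.73 with the next at -1.14. All but S18 were batch 1 libraries.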

How the results depend on the processing

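No paired analysis was possible because the labels give the libraries of different groups no shared replicate numbers and do not say which of them came from the same animal, so every p-value here ignores that sharing. Of the members called with PA, batch 1 alone left 1 in Ctr cells and 1 in αGlu cells, and the rule of a fold above 2 left 1 in αGlu cells and 2 between batches. Leaving out 1 library gave 2 to 3 called members in Ctr cells, 5 to 6 between batches, and differences in the Dgat2 to Dgat1 ratio of 0.45 to 0.67 in αGlu cells. For that ratio in Ctr cells, permuting within batches kept 0.92 with an adjusted p of 0.06, the smallest its 400 arrangements allow.

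Signs turned only in values that did not pass the test. In batch 2 alone these were Pnpla2 0.019 and Abhd5 0.032 with PA in Ctr cells, Abhd5 -0.047 in αGlu cells, αGlu against Ctr for Plin2 0.044 in BSA and 0.0033 in PA, and for Dgat2 0.13 in PA. In batch 1 alone they were Lipe -0.027 and Dgat1 -0.015 with PA in αGlu cells, Dgat2 -0.13 in BSA and Plin4 -0.12 in PA for αGlu against Ctr, and Plin2 0.016 for the difference between PA responses (0.0025 with upper-quartile scaling). Abhd5 in αGlu cells was -0.0087 with DESeq2, -0.00011 with upper-quartile scaling and -0.00047 with a filter of 10 counts in 12 libraries.

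Ranges that crossed 0 when 1 library was left out were, for PA in Ctr cells, Abhd5 -0.072 to 0.0076, Pnpla2 -0.064 to 0.0064, G0s2 -0.40 to 0.65 and the G0s2 to Pnpla2 ratio -0.17 to 0.81. For PA in αGlu cells they were Abhd5 -0.035 to 0.034, Lipe -0.0093 to 0.11, Plin3 -0.15 to 0.011 and the Lipe to Pnpla2 ratio -0.0057 to 0.21. For αGlu against Ctr they were, in BSA, Plin2 -0.095 to 0.017, Dgat2 -0.015 to 0.13, and the G0s2 and Lipe to Pnpla2 ratios -0.80 to 0.18 and -0.085 to 0.052, and in PA, Plin2 -0.15 to 0.031 and the Lipe to Pnpla2 ratio -0.15 to 0.067. The remaining ones were Lipe between batches, -0.047 to 0.034, and for Plin2 the difference between PA responses, -0.12 to 0.057, and between batches, -0.11 to 0.089.

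The Plin4 call in Ctr cells was also lost with no filter (-1.30, adjusted p = 0.0717) and no batch term (-1.37, adjusted p = 0.283), and Plin4 was not tested under the stricter filter, in the 2 groups alone or in batch 2 alone. Dgat1 passed between batches with DESeq2 (adjusted p = 0.0449) and the stricter filter (adjusted p = 0.0462). The cause of these changes was not tested, beyond the fewer libraries in a batch. Counting depth limits Plin4, Plin5 and G0s2.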

Other observations

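Plin3 and Plin4 lie 169 kb apart on chromosome 17, and other genes near them were looked at after their batch difference was seen. Among genes whose lowest coordinate lay within 500 kb of that of Plin3, 37 were tested and 19 of them differed between batches, beside the 26.1% higher and 25.4% lower of all genes tested. The 35 that were not members had log2 differences, batch 2 against batch 1, from -1.32 (Stap2) to 0.73 (Uhrf1), with a median of -0.020. A difference as large as that of Plin3, in either direction, was seen in 2.12% of all tested genes, and one as large as that of Plin4 in 0.961%.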
